A study of Rattus norvegicus with 4 samples.

Results

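The genes described here encode carriers that move amino acids and metal ions across cell membranes. They were taken from the array by their annotation symbol, which had to be single and to start with Slc1a, Slc3a, Slc6a, Slc7a, Slc36a, Slc38a, Slc30a, Slc39a, Slc11a or Slc40a. A total of 103 probe sets (groups of probes that report on a transcript) matched, from 74 genes, and a gene with several was read from the one brightest on average. Genes above the median of all table values, 4.51 on the log2 scale, on at least 1 array were kept. This left 44 of 74 carrier genes, beside 9393 of 14217 genes in all. All 44 were above that floor on all 4 arrays. The kept gene nearest the floor was Slc39a5, a zinc importer, at 4.64, and the excluded gene nearest to it was Slc7a6, with a highest value of 3.46. Of the 30 excluded genes, 24 were at 2.11 on every array after rounding to 2 decimals, which is the lowest value in the table. None of the 3 measured Slc36 genes, proton-coupled amino acid carriers, passed.

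The samples were left kidneys of male Wistar rats of 300 to 480 g, a weight being given in place of an age, that stayed in the exsanguinated body for 29 min of warm ischaemia, as in donation after cardiac death. In the cold group, 3 h of hypothermic machine perfusion in University of Wisconsin solution followed, and nothing more. The warm group had this and then a warm phase of 30 min, in which oxygenated Krebs-Henseleit buffer, modified, ran through the organ. The heparin group and the PPS group were treated as the warm group, with low molecular weight heparin or PPS, known here only by this abbreviation, at 10 IU/ml in both perfusates. Each group was 1 Affymetrix array, hybridised with RNA of 3 kidneys in equal amounts, the best 3 of the group by RNA quality. There was therefore no spread between replicates, no comparison has a p-value, and a difference between the pooled animals cannot be told apart from a difference between treatments.

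The kidney reclaims nearly all filtered amino acids in the proximal tubule. Carriers in the brush border, such as the cystine exchanger made of Slc3a1 and Slc7a9, take them up from the urine, and carriers in the basolateral membrane, such as Slc7a7 and Slc7a8 with the heavy subunit Slc3a2, pass them on to the blood. Slc6, Slc1 and Slc38 members use the sodium gradient to concentrate their substrates. Among metal carriers, Slc11a2 imports iron and Slc40a1 (ferroportin) is the known cellular iron exporter, Slc39 members move zinc and related metals into the cytosol, and Slc30 members move zinc out of it. Not all of the 44 genes encode plasma membrane carriers. Slc30a5, Slc30a6, Slc30a7 and Slc39a7 belong to the secretory pathway, Slc30a9 to mitochondria and Slc38a7 to lysosomes, and Slc7a6os is named for its position opposite Slc7a6 and encodes no carrier. The 44 genes thus comprised 24 amino acid carriers or their subunits, 19 metal carriers and Slc7a6os.

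The 4 arrays had median log2 values between 4.50 and 4.54. Of 24 poly-A control probe sets (bacterial transcripts added to the RNA before labelling), all were higher on the warm than on the cold array, by a median of 1.25 on the log2 scale. The difference between the 3' and 5' probe sets of beta-actin, a measure of RNA quality, was 2.79 on the cold array and 3.19 to 3.39 on the others. Shifting the arrays to equal poly-A controls moved the all-gene median of warm minus cold to -1.27. Differences here are as deposited, and 4 values in a row stand for the cold, warm, heparin and PPS arrays in that order. On the scale of equal poly-A controls all 44 carrier genes were lower on the warm than on the cold array, 34 of them by 2-fold or more and 0 higher. Of all genes, 80.0% passed 2-fold in either direction on that scale. Set against the median of all genes, the median of the carrier genes in warm minus cold was -0.06 on either scale. The part of hybridisation, of RNA quality and of total RNA in the differences from the cold array was not tested.

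By the probe sets used, no carrier gene differed by 2-fold between any of the 6 pairs of arrays, beside 490 of all 9393 analysed genes (5.22%) that did in at least 1 pair. The largest difference was that of Slc1a4, a carrier of alanine, serine and cysteine, between the PPS and the cold array, at 1.95-fold. In warm minus cold, 342 of the analysed genes (3.64%, with 2.48% higher and 1.16% lower) passed 2-fold and 0 of 44 carrier genes. Over the 4 arrays, 16 of 44 carrier genes (36.4%) spanned 1.5-fold or more, beside 16.6% of all analysed genes. At a limit of 1.5-fold, 10 carrier genes (22.7%) passed, 3 higher and 7 lower on the warm array, beside 10.9% of all analysed genes (6.81% higher and 4.05% lower). For 154 other genes with Slc symbols the share was 14.9%. The 3 higher carrier genes include Slc7a6os, which encodes no carrier. Of the 24 amino acid carriers 2 were higher and 4 lower by 1.5-fold, and of the 19 metal carriers 0 and 3. The median size of the log2 difference was 0.30 for carrier genes, 0.25 for other Slc genes and 0.17 for all analysed genes. In warm minus cold the carrier genes thus passed 1.5-fold more often than all analysed genes, as the plot of shares shows. A share of 3.64% is few of 44 genes, so the count of 0 at 2-fold is not read as a trait of the carriers.

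**Figure D1:**
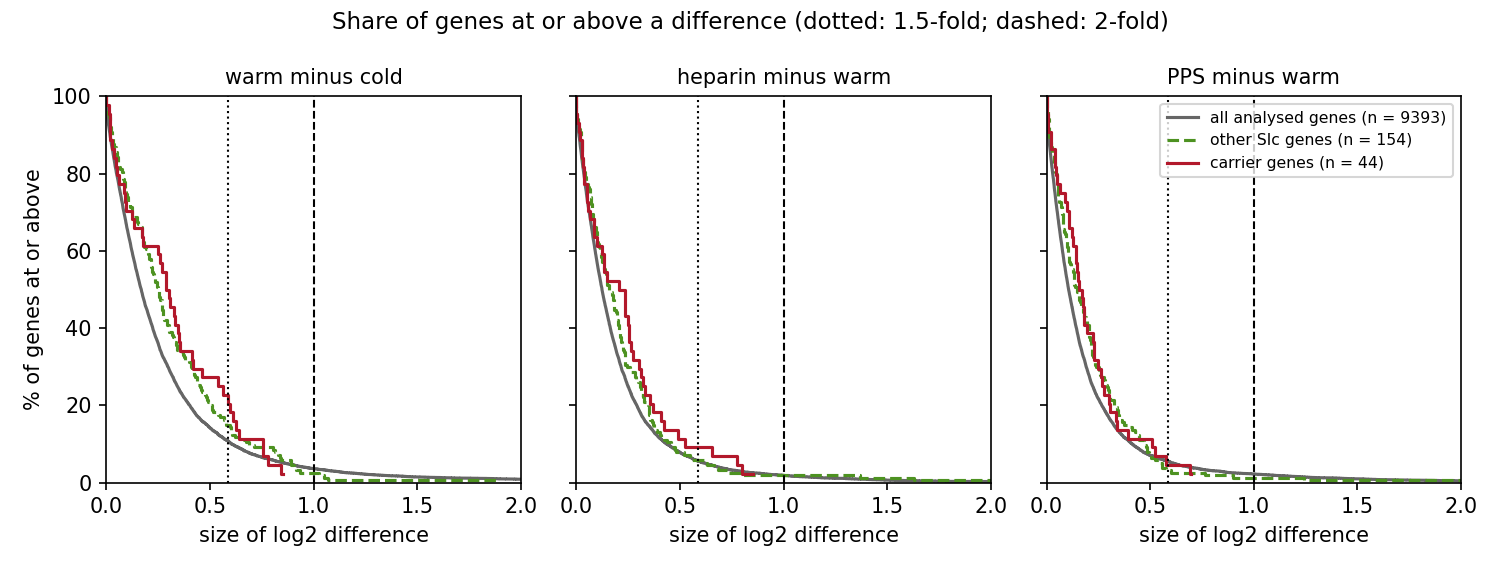
Share of genes (y axis, percent) whose log2 difference is at least the size on the x axis, for 44 carrier genes, 154 other Slc genes and 9393 analysed genes; the x axis ends at 2, and some genes outside the carriers lie beyond it. The carrier line lies above the line of all genes at 1.5-fold in warm minus cold (22.7% against 10.9%) and ends before 2-fold in each panel.

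**Figure D2:**
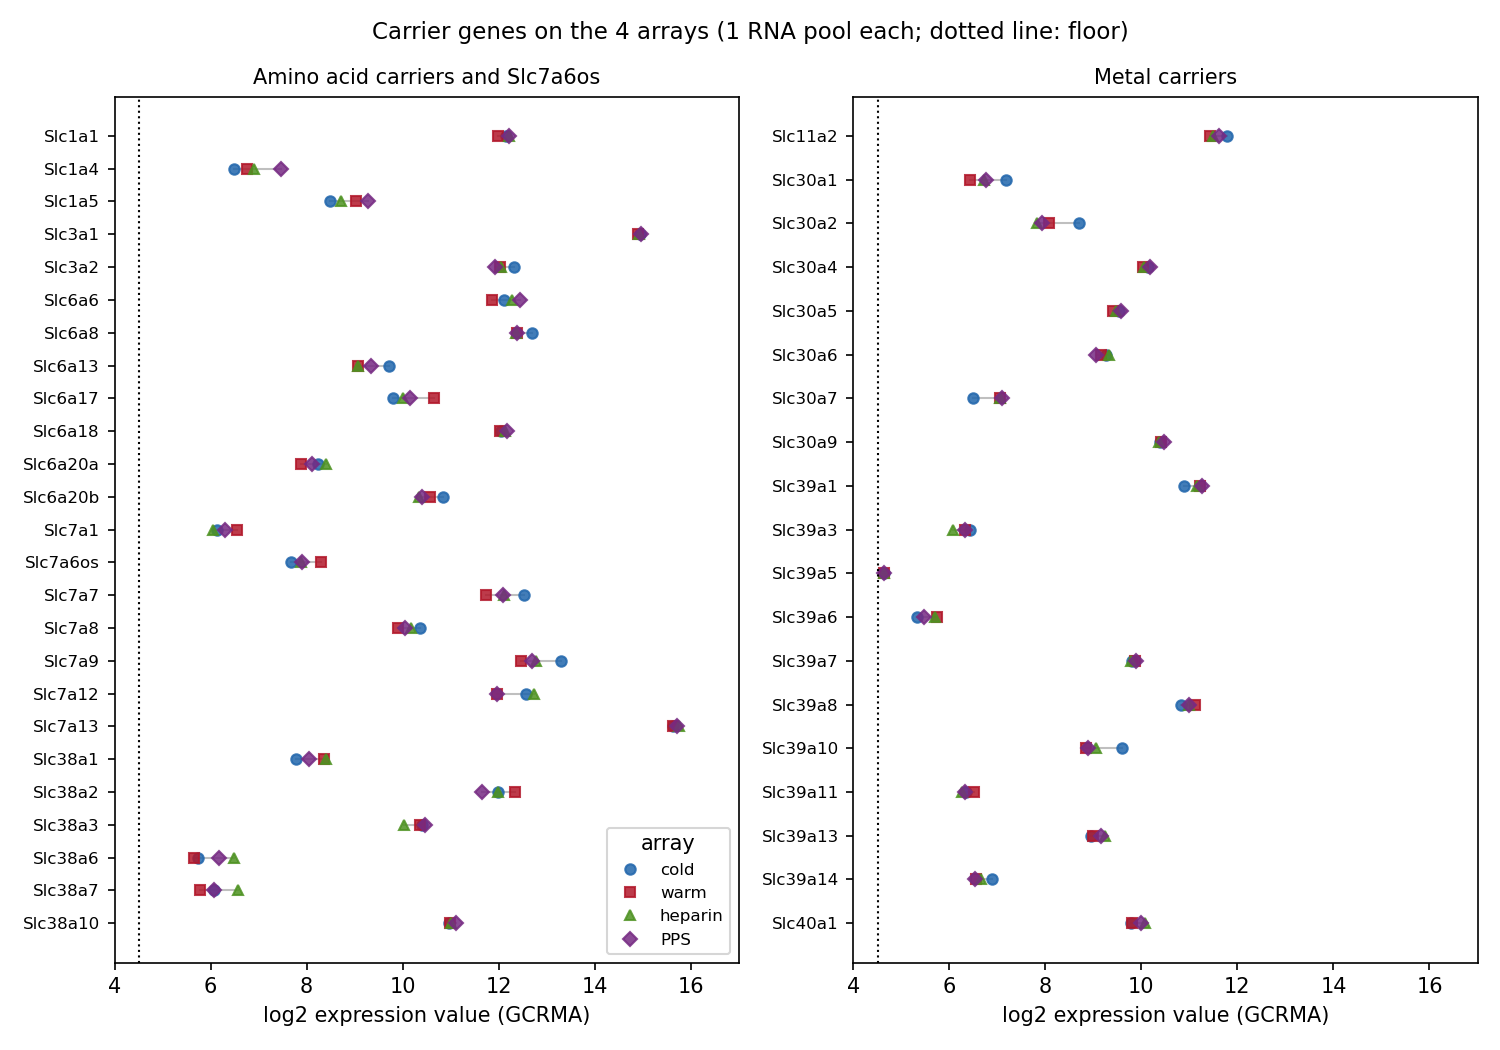
Log2 expression values (x axis) of the 44 carrier genes on each of the 4 arrays, 1 point per array, with the amino acid carriers and Slc7a6os on the left and the metal carriers on the right. The 4 points of a gene span at most 0.97 (Slc1a4), and all points lie above the floor of 4.51 (dotted); levels of different genes are not comparable on such arrays.

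Among the exchangers of cystine and cationic amino acids, Slc7a9 and Slc7a7 were lower on the warm than on the cold array by 1.5-fold or more, and their heavy subunits were not. Slc7a9, the light subunit of the brush border cystine exchanger, whose human counterpart is mutated in cystinuria, had log2 values of 13.31 (cold), 12.46 (warm), 12.78 (heparin) and 12.69 (PPS). The cold array was the highest and the 3 warm-perfused arrays lay together below it, with a warm minus cold difference of -0.84. Its heavy subunit Slc3a1, the other cystinuria gene, had values of 14.94, 14.89, 14.92 and 14.96 in the same order. The 2 subunits of this exchanger thus differed in their pattern: Slc3a1 spanned 0.07 over the 4 arrays and Slc7a9 spanned 0.84. Slc7a13, a further partner of Slc3a1 that carries aspartate, glutamate and cystine, was as even, between 15.62 and 15.75. Slc3a1 and Slc7a13 lay near the top of a table whose highest value is 16.4.

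On the basolateral side, Slc7a7, the carrier lost in lysinuric protein intolerance, had values of 12.52 (cold), 11.74 (warm), 12.11 (heparin) and 12.08 (PPS), a warm minus cold difference of -0.78. Its order was that of Slc7a9, with the cold array highest, the warm array lowest and both supplemented arrays between them. Slc7a8, a neutral amino acid exchanger of the same membrane, had values of 10.36, 9.90, 10.16 and 10.06, a difference of -0.46. Slc3a2, the heavy subunit of both, had 12.33, 12.04, 12.05 and 11.93, so that PPS and not warm was its lowest array. Slc7a12, an exchanger of the same family, did not follow this order. Its values were 12.56 on the cold and 12.73 on the heparin array, and 11.96 on both the warm and the PPS array. It gave the largest difference among carrier genes between the supplements, 0.78 in heparin minus PPS, and the only 1 past 1.5-fold there, beside 2.68% of all analysed genes (1.29% higher and 1.39% lower). Slc7a1, the widely expressed importer of arginine and lysine, was the only Slc7 carrier higher on the warm than on the cold array, with values of 6.13, 6.55, 6.06 and 6.30. A second probe set of Slc7a1, nearer the floor, had 5.43, 5.77, 6.00 and 5.77, with heparin and not warm highest. Over the 8 Slc3 and Slc7 carrier genes, 7 were lower on the warm than on the cold array, with a median of -0.37, against -0.00 for all analysed genes. On the poly-A scale all 8 were lower, with a median of -1.64, and Slc7a1 turned with them.

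Slc7a6os, which is read here only because of its name, had 7.68, 8.29, 7.89 and 7.90, a warm minus cold difference of 0.61 that turned to -0.66 on the poly-A scale. The promoters of Slc7a9 and Slc7a7 are shown with those of Slc30a1, Slc6a17 and Slc38a1, described below, as examples from different subfamilies among the 9 genes past 1.5-fold in warm minus cold that have a promoter sequence; they were chosen after their values were seen. The others with a sequence are Slc7a12, Slc7a6os, Slc30a2 and Slc39a10. Each is the RefSeq sequence of build GRCr8 from 250 bases before to 50 bases after the gene's start, 5′ to 3′ on the gene's strand. They lie at chr1:97246632-97246931, plus strand, chr15:31835634-31835933, minus strand, chr13:106021769-106022068, plus strand, chr2:197843834-197844133, minus strand and chr7:129681352-129681651, minus strand. Capitals mark matches, on either strand and with overlaps allowed, to the AP-1 motif TGANTCA, the CRE motif TGACGTCA, the C/EBP-ATF element of the amino acid response TGATGNAA, the metal response element core TGCGCNC or TGCACNC, and the antioxidant response element core TGACNNNGC.
Slc7a9: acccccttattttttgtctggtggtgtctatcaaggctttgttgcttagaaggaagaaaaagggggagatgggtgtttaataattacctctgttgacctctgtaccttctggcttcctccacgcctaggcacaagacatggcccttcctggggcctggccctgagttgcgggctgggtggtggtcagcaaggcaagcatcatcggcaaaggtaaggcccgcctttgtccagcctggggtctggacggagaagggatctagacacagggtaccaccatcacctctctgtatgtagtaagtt
Slc7a7: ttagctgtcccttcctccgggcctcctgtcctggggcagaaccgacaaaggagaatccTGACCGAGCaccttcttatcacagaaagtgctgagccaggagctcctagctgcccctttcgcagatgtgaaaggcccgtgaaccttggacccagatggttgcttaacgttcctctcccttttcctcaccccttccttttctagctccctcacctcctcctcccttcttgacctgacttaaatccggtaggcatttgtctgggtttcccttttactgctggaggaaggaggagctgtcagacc
Slc30a1: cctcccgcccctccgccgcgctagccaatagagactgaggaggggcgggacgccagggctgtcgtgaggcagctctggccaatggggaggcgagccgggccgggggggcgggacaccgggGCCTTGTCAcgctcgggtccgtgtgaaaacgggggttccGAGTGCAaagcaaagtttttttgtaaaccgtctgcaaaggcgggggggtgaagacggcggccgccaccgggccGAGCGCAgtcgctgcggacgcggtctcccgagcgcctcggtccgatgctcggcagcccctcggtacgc
Slc6a17: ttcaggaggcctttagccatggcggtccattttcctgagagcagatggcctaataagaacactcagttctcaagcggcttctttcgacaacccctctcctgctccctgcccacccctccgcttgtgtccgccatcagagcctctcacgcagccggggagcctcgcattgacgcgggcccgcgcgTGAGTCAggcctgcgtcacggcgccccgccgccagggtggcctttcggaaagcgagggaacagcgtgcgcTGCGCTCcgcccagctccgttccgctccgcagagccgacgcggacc
Slc38a1: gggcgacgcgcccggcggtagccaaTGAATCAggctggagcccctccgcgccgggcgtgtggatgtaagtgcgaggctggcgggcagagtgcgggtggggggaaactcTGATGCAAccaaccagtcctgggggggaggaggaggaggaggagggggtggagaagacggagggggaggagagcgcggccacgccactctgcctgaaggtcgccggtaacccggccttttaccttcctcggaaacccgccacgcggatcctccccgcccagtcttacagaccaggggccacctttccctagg
The window of Slc7a9 held none of these letters, and that of Slc7a7 held 1 antioxidant core. Slc30a1 held 2 metal response cores and 1 antioxidant core, both kinds written on the other strand. Slc6a17 held 1 AP-1 motif, TGAGTCA, and 1 metal response core, and Slc38a1 held 1 AP-1 motif, TGAATCA, and 1 C/EBP-ATF element, TGATGCAA. Such short motifs are common. Of 33469 promoters of this length, 24.2% held a metal response core, 12.1% an antioxidant core, 7.33% an AP-1 motif, 3.98% a C/EBP-ATF element and 1.83% a CRE. Of the 36 kept carrier genes with a promoter sequence, 12 held a metal response core, 11 an antioxidant core, 5 an AP-1 motif, 3 a C/EBP-ATF element (Slc38a1, Slc7a1 and Slc1a4) and 1 a CRE (Slc38a6). A match is a description of letters and shows no binding.

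Most sodium-coupled Slc6 carriers were slightly lower on the warm than on the cold array, 6 of 7 with a median of -0.26. Slc6a13, a carrier of GABA, betaine and taurine, had values of 9.71 (cold), 9.07 (warm), 9.06 (heparin) and 9.34 (PPS), a warm minus cold difference of -0.64. Slc6a8, the creatine carrier, was also highest on the cold array, at 12.69, with 12.38, 12.37 and 12.39 on the others. A further probe set of Slc6a8 was also highest on the cold array, with a warm minus cold difference of -0.95. Slc6a6, the taurine carrier, had values of 12.11 (cold), 11.86 (warm), 12.28 (heparin) and 12.44 (PPS). The warm array was lowest and the PPS array highest by this probe set and by a second, which had 9.40, 8.85, 9.33 and 9.66. The PPS minus warm difference was 0.58 by the first and 0.81 by the second. Heparin lay above cold by the first and below it by the second. Among brush border carriers, Slc6a18, a neutral amino acid carrier, lay between 12.04 and 12.18 on all arrays. The proline carriers Slc6a20a and Slc6a20b had warm minus cold differences of -0.35 and -0.26, and 2 probe sets of Slc6a20a disagreed in heparin minus warm, with 0.52 and -0.20. These 2 genes are close copies, and their probes may share signal.

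Slc6a17, a carrier of neutral amino acids known from synaptic vesicles, was the exception in its subfamily. It had values of 9.80 (cold), 10.65 (warm), 10.00 (heparin) and 10.15 (PPS), the largest warm minus cold difference upwards, 0.85. The warm array stood above the other 3, which spanned 0.34. A further probe set of this gene, near the floor at 5.26 to 5.30, showed no such difference, and on the poly-A scale the warm minus cold difference of Slc6a17 turned to -0.42.

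Among the Slc1 carriers, Slc1a1, the brush border glutamate carrier whose loss causes dicarboxylic aminoaciduria, was even, with values of 12.15, 11.98, 12.22 and 12.21. The neutral amino acid carriers Slc1a4 and Slc1a5 were both highest with PPS and lowest on the cold array. Slc1a4 had values of 6.50 (cold), 6.77 (warm), 6.90 (heparin) and 7.46 (PPS). For Slc1a5, the glutamine carrier, they were 8.48, 9.02, 8.71 and 9.29. Their PPS minus cold differences of 0.97 and 0.80 passed 1.5-fold, as did Slc30a7 upwards and 4 carrier genes downwards, beside 6.69% of all analysed genes in PPS minus cold (3.48% higher and 3.2% lower). Scaled to the poly-A controls, the PPS minus cold differences of Slc1a4 and Slc1a5 turned to -0.21 and -0.38. In heparin minus PPS, with arrays that both had the warm phase, the differences were -0.57 for each gene.

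Of 6 Slc38 carriers, 2 were past 1.5-fold in heparin minus warm, beside 5.6% of all analysed genes, and 1 in PPS minus warm, beside 5.5%. Slc38a2, a carrier of small neutral amino acids that cells are known to induce when amino acids are short, had values of 11.99 (cold), 12.34 (warm), 11.99 (heparin) and 11.65 (PPS). The warm array was highest and the PPS array lowest, and the PPS minus warm difference was -0.69. Slc38a1, a glutamine carrier, had values of 7.78, 8.36, 8.40 and 8.06 in the same order of arrays, a warm minus cold difference of 0.59, or -0.68 on the poly-A scale. Slc38a3, which takes up glutamine for ammonia production in the proximal tubule, was lowest with heparin, at 10.03, beside 10.36 to 10.46 on the others. Slc38a6 and Slc38a7 were highest with heparin, at 6.50 and 6.57, against 5.65 and 5.77 on the warm array. Their heparin minus warm differences of 0.85 and 0.80 come from values close to the floor, and Slc38a7 had an identical value on the cold and PPS arrays. Slc38a10 spanned only 0.14.

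**Figure D3:**
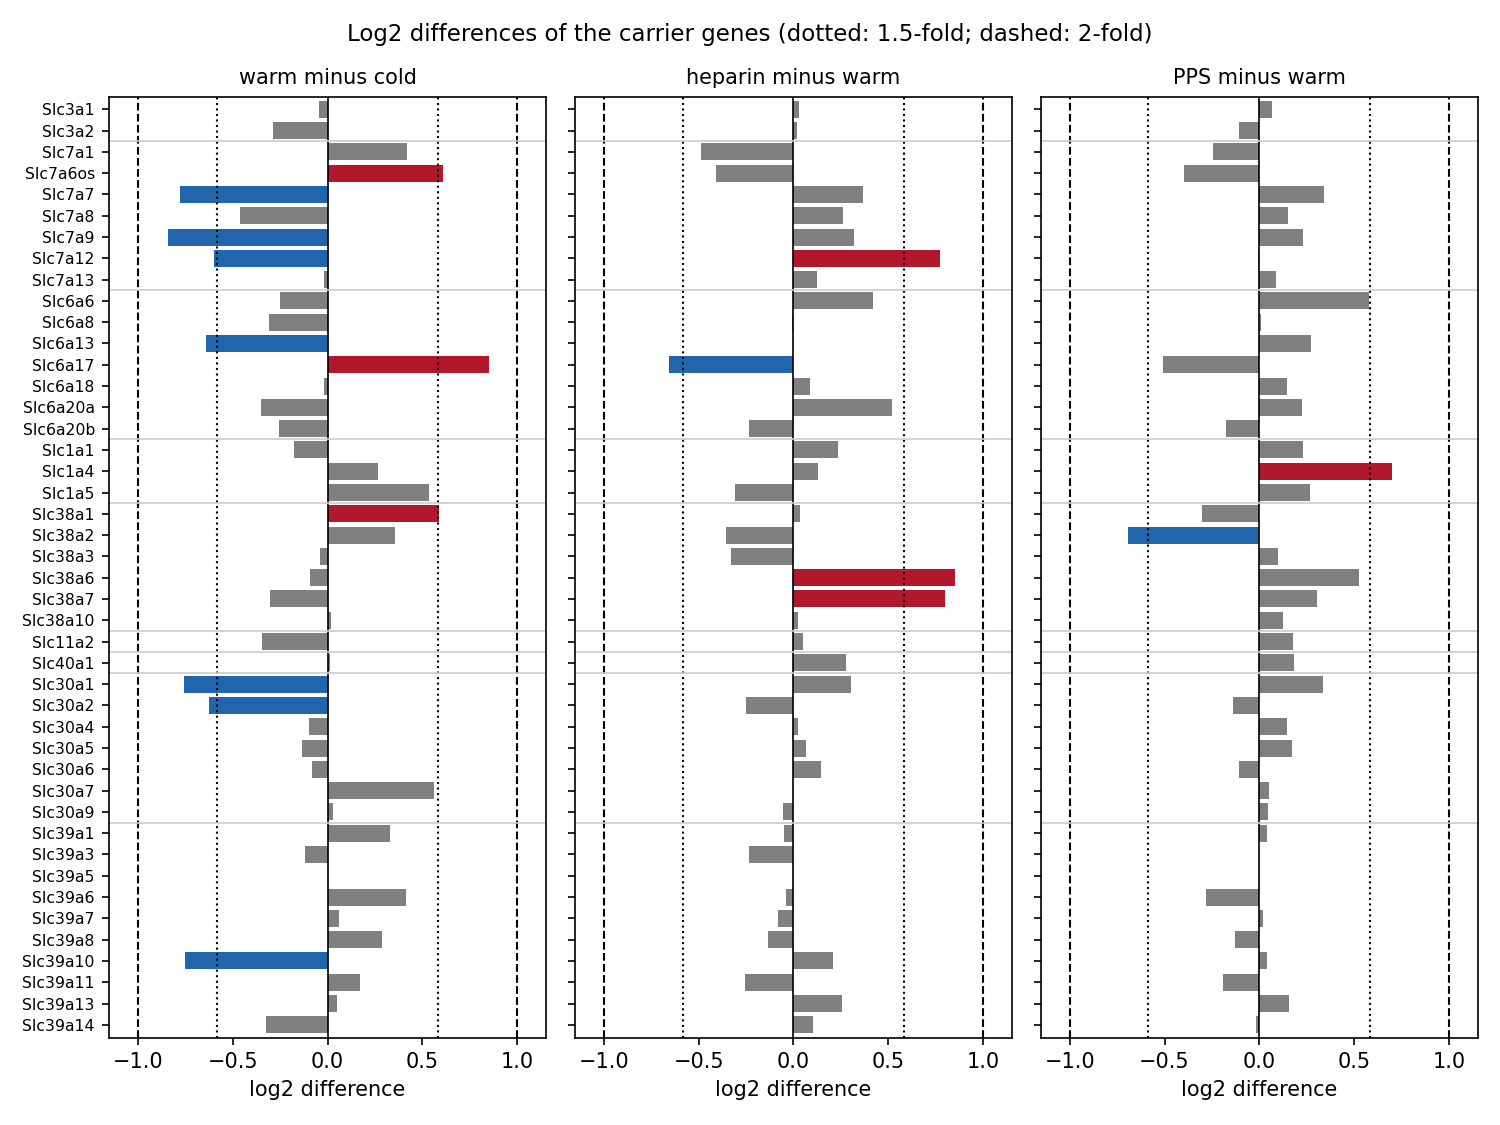
Log2 differences (x axis) of the 44 carrier genes, as deposited, ordered by subfamily, in warm minus cold, heparin minus warm and PPS minus warm; red and blue bars are at or past 1.5-fold (dotted), and none reaches 2-fold (dashed). Slc7, Slc30 and Slc39 members lead the lower bars in warm minus cold, and Slc38a6 and Slc38a7 have the longest bars in heparin minus warm; scaled to the poly-A controls, all bars in warm minus cold would lie below 0.

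By the probe sets used, neither of the iron carriers Slc11a2 and Slc40a1 reached 1.5-fold in any pair of arrays. Slc11a2, the importer of ferrous iron, had values of 11.78 (cold), 11.44 (warm), 11.49 (heparin) and 11.62 (PPS). A second, dimmer probe set of Slc11a2 had 6.32, 5.78, 5.62 and 5.49, and by it heparin minus cold (-0.70) and PPS minus cold (-0.83) passed 1.5-fold. Slc40a1, the iron exporter ferroportin, had 9.79, 9.80, 10.08 and 9.98, and its second probe set spanned 9.28 to 9.46. The cold array was the highest by both probe sets of Slc11a2.

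Among the metal carriers, the zinc carriers Slc30a1, Slc39a10 and Slc30a2 were lower on the warm than on the cold array by 1.5-fold or more, beside 4.05% of all analysed genes. Slc30a1, the zinc exporter of the plasma membrane and a known target of the metal-sensing factor Mtf1, had values of 7.18 (cold), 6.43 (warm), 6.73 (heparin) and 6.76 (PPS), a warm minus cold difference of -0.75. Slc39a10, a zinc importer, had 9.60, 8.85, 9.05 and 8.89, with a difference of -0.75 as well. For both the cold array stood above the 3 others. Slc30a2, a vesicular zinc carrier, had 8.69, 8.07, 7.82 and 7.93, with a warm minus cold difference of -0.63. Its second probe set gave -1.03 in warm minus cold, the only probe set of a kept carrier gene past 2-fold there, but 0.50 in heparin minus warm where the first gave -0.25. The cold array was thus highest by both probe sets, while the direction with heparin depended on the probe set.

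The other zinc carriers differed less in warm minus cold. Slc30a7, which loads zinc into the Golgi, was lowest on the cold array, with 6.49 against 7.05, 7.05 and 7.10. Its warm and heparin values were identical, and its cold value was close to the background. Slc39a6, a relative of Slc39a10, had 5.33, 5.74, 5.70 and 5.46, close to the floor. Slc39a1 had 10.88 on the cold and 11.16 to 11.26 on the warm-perfused arrays. Slc39a8 and Slc39a14, which carry manganese as well as zinc, had warm minus cold differences of 0.29 and -0.33. Slc30a4, Slc30a5, Slc30a6, Slc30a9 and Slc39a7, carriers of the secretory pathway, vesicles or mitochondria, differed by 0.14 or less in size in warm minus cold. Slc30a7 and the vesicular Slc30a2 differed by more. A second probe set of Slc30a9 gave -0.80, so that the evenness of these 5 did not hold for each probe set. Slc39a3 had -0.12 by the probe set used and -0.68 by a second, dimmer one. Slc39a5 had an identical value on all arrays and carries no information. Over 19 metal carriers the median was 0.00 in warm minus cold, 0.00 with heparin against warm and 0.04 with PPS against warm. For 24 amino acid carriers these medians were -0.13, 0.06 and 0.13.

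**Figure D4:**
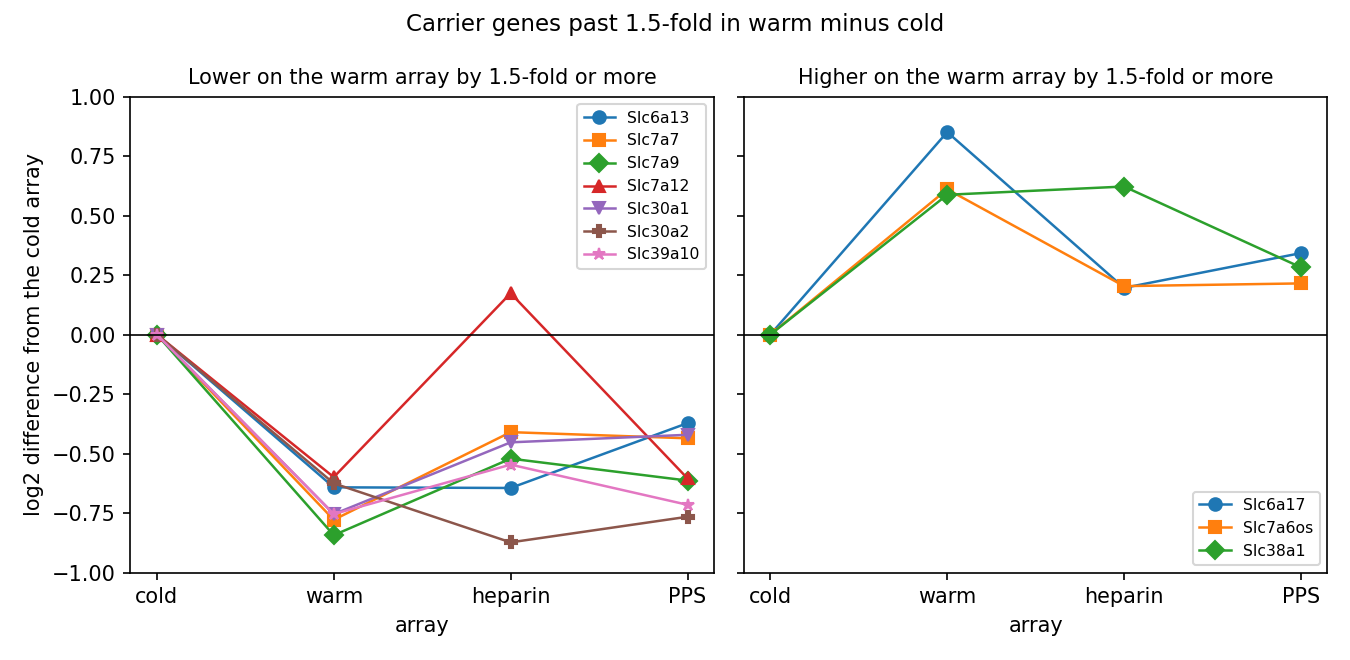
Log2 difference from the cold array (y axis), as deposited, of the 7 carrier genes lower (left) and 3 higher (right) on the warm array by 1.5-fold or more; lines join the arrays to guide the eye and do not show an order in time. Except for Slc7a12 with heparin, the genes on the left are below the cold array on all 3 warm-perfused arrays. The 3 on the right, Slc7a6os (no carrier) among them, turn below the cold array on the warm array when scaled to the poly-A controls.

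The comparison with heparin asked how this glycosaminoglycan, tested for anti-inflammatory properties, alters the warm-perfused kidney. Slc38a6, Slc38a7 and Slc7a12 were higher and Slc6a17 was lower than on the warm array by 1.5-fold or more. These 4 of 44 carrier genes (9.09%) stand beside 5.6% of all analysed genes (1.69% higher and 3.91% lower). At 2-fold, 0 of 44 stand beside 1.86% (0.383% higher and 1.48% lower). The median of the carrier genes was 0.03. No metal carrier passed 1.5-fold, the largest being Slc30a1 (0.30) and Slc40a1 (0.27) upwards and Slc39a11 (-0.25) and Slc30a2 (-0.25) downwards.

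With PPS, the other supplement, Slc1a4 was higher (0.70) and Slc38a2 lower (-0.69) than on the warm array by 1.5-fold or more, which is 4.55% of carrier genes beside 5.5% of all analysed genes (1.78% higher and 3.73% lower). At 2-fold, PPS minus warm gave 0 of 44, beside 2.23% (0.511% higher and 1.71% lower). The median of the carrier genes was 0.06, and 28 of 44 were higher and 14 lower, beside 49.4% of all analysed genes lower. The heparin and PPS comparisons share the warm array, so each is given by its own values. In heparin minus PPS, 0 of 44 carrier genes passed 2-fold, beside 0.49% of all analysed genes (0.192% higher and 0.298% lower), and all 19 metal carriers were within 0.26 of each other.

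Against the cold array, heparin minus cold passed 1.5-fold for 2 carrier genes upwards and 2 downwards, beside 6.65% of all analysed genes (3.67% higher and 2.98% lower). The higher ones were Slc38a6 (0.76) and Slc38a1 (0.62), which turned to -0.60 and -0.74 on the poly-A scale, and the lower ones Slc30a2 (-0.87) and Slc6a13 (-0.64). With PPS, Slc30a2 (-0.77), Slc39a10 (-0.72), Slc7a9 (-0.61) and Slc7a12 (-0.60) were the 4 lower ones. At 2-fold 0 of 44 passed in heparin minus cold, beside 2.09% of all analysed genes (1.17% higher and 0.916% lower), and 0 of 44 in PPS minus cold, beside 1.82% (1.03% higher and 0.788% lower).

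Genes that work with these carriers were read from lists chosen with earlier results known. Of 10 measured partners of carriers, 0 passed 2-fold between warm and cold or between either supplement and warm. Cltrn (collectrin), which brings brush border amino acid carriers to the membrane, had values of 15.48, 15.15, 15.33 and 15.25, and the scaffold Pdzk1 13.48, 13.14, 13.26 and 13.21. Both had the cold array highest and the warm array lowest, as Slc7a9 did. This order did not hold for the whole list, in which 6 of 10 were lower and 4 higher on the warm than on the cold array as deposited (median -0.12). The scaffold Nherf1 was lowest with heparin, at 12.47 beside 12.55 to 12.77. Sgk1, a kinase that raises the activity of several carriers, was lowest with PPS, at 12.05 beside 12.60 to 12.85. On the same list, Sgk2 was highest with PPS, at 9.35 beside 8.66 to 9.06, and Sgk3 lay between 8.85 and 9.01. Of 21 carriers of amino acids, peptides or metals outside the chosen symbols, 1 passed 2-fold in warm minus cold, beside 3.64% of all analysed genes: the brush border peptide carrier Slc15a1, with 7.85, 6.78, 6.79 and 6.78.

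The amino acid response, in which cells short of amino acids induce carriers through Atf4, was read from 22 measured genes, which differed widely between the warm and the cold array. Of these, 4 were higher by 2-fold in warm minus cold and 0 lower, beside 2.48% and 1.16% of all analysed genes, with a median of 0.08 (-1.18 on the poly-A scale). These were Ppp1r15a (4.60), Ddit3 (1.97), Ddit4 (1.70) and Cebpb (1.49), all of which other stresses are known to induce too, and these 4 alone stayed above 0 on the poly-A scale. Nupr1, Sesn1 and Sesn2, stress genes of the same list, had 0.08, -0.28 and -0.19. Atf4 itself had values of 11.37 (cold), 12.31 (warm), 11.71 (heparin) and 11.28 (PPS), with warm highest and PPS lowest as in Slc38a2. Asns, asparagine synthetase, had a warm minus cold difference of 0.78, while the serine synthesis enzymes Phgdh, Psat1 and Psph had -0.57, -0.37 and -0.55. With PPS, 5 genes were lower than on the warm array by 2-fold, beside 1.71% of all analysed genes, namely Ppp1r15a (-2.62), Ddit3 (-1.74), Nupr1 (-1.12), Cebpb (-1.10) and Atf4 (-1.03). With heparin 2 were, Ppp1r15a (-1.73) and Ddit3 (-1.22), beside 1.48%. Slc7a11 and Slc7a5, known carrier targets of this response, were below the floor on all arrays and could not be read. Slc38a2, also known to be induced when amino acids are short, could be read. It had 0.35 in warm minus cold, or -0.92 on the poly-A scale.

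Of 16 genes of iron handling, 3 were lower by 2-fold in warm minus cold and 0 higher, beside 1.16% and 2.48% of all analysed genes, with a median of -0.11. They were the reductase Steap4 (-1.21), the iron-regulatory protein Ireb2 (-1.13) and the ferroxidase Cp (-1.05), which works with Slc40a1. With PPS, Steap4 was higher than on the warm array (1.04), the only 1 of the 16 past 2-fold upwards, beside 0.511% of all analysed genes, and Cp differed by 0.99. Tfrc, the transferrin receptor, had values of 11.48, 11.94, 11.44 and 11.68. Of 11 genes of zinc, copper and manganese handling, 0 passed 2-fold in these 3 comparisons. The metallothionein Mt2A, a zinc-binding protein induced by Mtf1, had 11.29 (cold), 12.01 (warm), 11.49 (heparin) and 11.51 (PPS), so its highest array was the lowest of Slc30a1. On the poly-A scale all 11 genes of this list, Mt2A included, were lower on the warm than on the cold array.

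Markers of nephron segments also differed between the arrays. Of 18 proximal tubule markers, 17 were lower on the warm than on the cold array, with a median of -0.23 and 1 past 2-fold, the lactate carrier Slc5a12 (-1.03). Their summed level on the linear scale was 369143 (cold), 321372 (warm), 325431 (heparin) and 339446 (PPS). Defining markers such as Lrp2 and Slc34a1 were far above the floor on all arrays. The median warm minus cold differences were 0.44 for 9 thick ascending limb and distal markers, 0.69 for 14 collecting duct, 0.86 for 6 podocyte, 0.25 for 10 endothelial, -1.13 for 9 smooth muscle, pericyte and fibroblast, and 0.08 for 6 leukocyte markers. On the poly-A scale all of these medians were below 0. For 3 fat cell markers the median was 0.13 as deposited, and none of 8 adrenal markers was above the floor. The 2 red blood cell markers went opposite ways as deposited, Hbb with -1.14 and Slc4a1, also in the collecting duct list, with 0.57. Against the warm array, all 14 collecting duct markers were lower with heparin and all 14 with PPS, with medians of -0.60 and -0.48. The smooth muscle, pericyte and fibroblast markers had medians of 0.37 with heparin and 0.78 with PPS, with 8 of 9 above 0 in each. Podocyte markers had -0.51 and -0.22, endothelial markers -0.27 and -0.22, and proximal tubule markers 0.04 (-0.04 on the poly-A scale) and 0.12. As deposited, the 6 leukocyte markers had -0.25 and -0.01, and the 3 fat cell markers -1.28 and -0.33. Of the latter, Fabp4 (-1.28) and Car3 (-1.78) were lower with heparin by 2-fold, beside 1.48% of all analysed genes, while Cidec had 0.07. Hbb had -0.50 with heparin and 0.52 with PPS, and Slc4a1 -0.46 and -0.56. In whole kidney RNA, fewer cells of a type and less RNA per cell cannot be told apart. The part of these cell types in the carrier differences was not tested.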

How the data were processed

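Each of the 4 arrays measured an RNA pool of 3 kidneys, labelled from 6 ug of total RNA, per the labels' protocols. The authors deposited log2 expression values per probe set, made with GCRMA (background correction, normalization and summary) per the submitters' processing notes (version not given in the sources used here). That the scale is log2 follows from the range of values, 2.11 to 16.4. GCRMA gives arrays nearly equal distributions, so a change in total RNA would not be seen.

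Of 31099 probe sets, 57 controls and 436 with several symbols were left out, 9780 are unnamed here, and 20758 of 20826 with 1 symbol were matched by Entrez identifier to the RefSeq annotation of GRCr8, used for names. Values under the floor (50th percentile, 4.51) were raised to it. With 1 array per group a gene was called by size only, at 2-fold (1 on the log2 scale), with 1.5-fold as an alternative, and counts are set beside the share of all analysed genes. The members and lists (7 of pathways, 10 of markers) were chosen with earlier results of these data known. Named genes were those of a list of disease-linked or well-studied carriers, those past 2-fold in any pair, the largest warm minus cold difference of each subfamily, and pathway genes past 2-fold; others were named after their values were seen. Calls at 2-fold were tested on simulated data with an assumed noise, since the arrays give none, and calls at 1.5-fold were not tested. Python 3.11.15, pandas 2.3.3 and numpy 2.4.6 were used. No proteins are shown, and genes without a probe set of 1 symbol were not analysed here, Slc6a19, Slc6a12 and Slc11a1 among them.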

Additional observations from a re-analysis of the deposited data

How the results depend on the processing

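Alternatives were no floor, a floor at the 60th percentile (37 carrier genes left), the mean of all probe sets of a gene, arrays centred on the median of the analysed genes, quantile normalization, genes above the floor on all 4 arrays, scaling to the poly-A controls and a limit of 1.5-fold. Under the first 6 the count of carrier genes past 2-fold stayed 0 in each of the 6 comparisons and each carrier median moved by less than 0.1. Scaled to the poly-A controls, the carrier genes lower by 2-fold or more numbered 34 for warm, 38 for heparin and 33 for PPS, each against cold. The shares of all genes past 2-fold in either direction were 80.0%, 86.6% and 76.9%. The carrier medians were -1.33, -1.34 and -1.13, and the carrier median in heparin minus PPS was -0.20. At 1.5-fold, 3 were higher and 7 lower in warm minus cold, 3 and 1 for heparin against warm, 1 and 1 for PPS against warm, 2 and 2 for heparin against cold, 3 and 4 for PPS against cold, and 1 was higher in heparin minus PPS. Of 264 differences (44 genes, 6 pairs), 8 of those past 1.5-fold turned sign on the poly-A scale, and 0 under the other alternatives. Taking the mean of all probe sets moved 53 by 0.1 or more. No paired analysis was possible because each group has 1 array. The number of arrays limits the precision, and 11 carrier genes had a value under 7 on at least 1 array, close to the background.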

Other observations

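Of 22 genes of glutathione and glutamate metabolism, 2 were lower by 2-fold in warm minus cold, beside 1.16% of all analysed genes. These were Dpep1, a brush border dipeptidase that splits the dipeptide left by glutathione breakdown, and Gsr, glutathione reductase. Dpep1 had a value of 7.40 on the cold array, was at the floor of 4.51 on the warm array, and had 5.88 and 6.09 with heparin and PPS. Gsr had 9.44 (cold), 8.16 (warm), 7.82 (heparin) and 8.02 (PPS), so the cold array stood apart. Gclc and Gclm, which make the glutathione precursor, differed by -0.10 and 0.12 in warm minus cold. Ggt1, the brush border enzyme that starts glutathione breakdown, was between 13.89 and 13.99 on all arrays.

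Of 8 genes of the tonicity response, which includes uptake of osmolytes such as taurine and betaine, 0 passed 2-fold in warm minus cold. Akr1b1, aldose reductase, which makes the osmolyte sorbitol, had 11.56 (cold) and 11.52 (warm), and 10.23 with either supplement. It was the only 1 of the 8 past 2-fold with heparin or PPS against warm, -1.30 in each, and belongs to a family of near-identical copies among which probes can share signal. Slc5a3, the inositol carrier, had 11.49 (cold), 12.32 (warm), 11.97 (heparin) and 11.77 (PPS), which is not the order of the taurine carrier Slc6a6. On the poly-A scale all 8 genes were lower on the warm than on the cold array.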
